A study of Mus musculus with 12 samples.

Results

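Antisense RNAs are transcripts read from the strand opposite a protein-coding gene. In the livers studied here, 112 of them were measured well enough to be described, out of 2669 autosomal antisense genes in the deposited counts and out of 52636 genes of all types. They were chosen by their annotation and by their counts: the gene type antisense in GENCODE M21, a position on an autosome, and a mean of at least 12 reverse-strand counts over 12 libraries. Of 113 autosomal antisense genes that reached this mean, 1 imprinted gene was left out by name. A further 1455 of the autosomal antisense genes had no count in any library. The mean count therefore chose the members, and their levels are given as a description without a test. The members nearest the threshold were Etohd2 and 0610040B10Rik, each with a mean of 12.1 counts, and Gm20632 with exactly 12 counts. Just outside it lay Appbp2os with 11.8, Tbx3os1 with 11.8 and Gm45606 with 11.6 counts.

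The libraries came from the livers of 12 male C57Bl/6J offspring killed at 16 weeks of age, with 1 library per mouse. The 6 VDD-F1 mice were born to females fed a vitamin D-deficient diet, with added calcium gluconate, from before mating until delivery, and the 6 VDS-F1 mice to females fed a vitamin D-sufficient diet over the same period. All offspring ate the sufficient diet after weaning, so the groups were defined by their mothers' diet. Which mice shared a litter was not given in the sources used here, and p-values then measure only the spread between these mice. Between 14275793 and 20815066 fragments per library were counted on genes on the reverse strand, the strand that held 92.7% to 95.8% of the stranded counts.

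Antisense genes are usually transcribed at a low level, often from a start close to that of the gene they face, and many of their RNAs stay in the nucleus. Some act on the gene on the other strand by bringing chromatin regulators to it, by interfering with its transcription or by pairing with its RNA, while for most no function is known. The liver is a tissue in which such pairs have an extreme range, since the genes for plasma proteins and for metabolic enzymes are transcribed at very high levels while the RNA on the opposite strand may be rare.

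Each member was paired with the protein-coding gene on the opposite strand whose span it overlapped most, or, without an overlap, with the nearest one transcribed away from it. A partner was found for 110 members. In 43 pairs the genes met head-to-head, with their 5′ ends overlapping, in 30 they met tail-to-tail, 29 members lay inside the sense gene, 4 spanned the whole sense gene and 4 were divergent without overlap. For 2 members no partner was found. Among the 106 overlapping pairs, 90 shared bases between exons and 16 did not. The head-to-head starts were close, with a median of 983 bases between them, and in 22 of the 43 pairs they were at most 1000 bases apart. The 110 members faced 108 distinct sense genes, because Acsm1 and Necab1 each had 2 members opposite them.

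Promoter sequences are shown for Gm11695, Gm17196 and Hnf4aos, which are 3 of the 4 members with an adjusted p under 0.05 between the diets by DESeq2 and have a RefSeq promoter. They were taken from RefSeq on GRCm38.p6, are written 5′ to 3′ on the strand of the antisense gene, and run from 250 bases before to 50 bases after the annotated start. The capitals mark the 50 bases from the start on.
Gm11695, chr11:115463665-115463964, minus strand: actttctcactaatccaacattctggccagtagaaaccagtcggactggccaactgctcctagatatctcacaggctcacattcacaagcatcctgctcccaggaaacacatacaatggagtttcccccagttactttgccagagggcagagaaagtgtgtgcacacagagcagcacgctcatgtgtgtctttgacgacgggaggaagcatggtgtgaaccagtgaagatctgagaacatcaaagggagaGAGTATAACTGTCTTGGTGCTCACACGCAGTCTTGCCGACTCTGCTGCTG
Gm17196, chr10:41553303-41553602, plus strand: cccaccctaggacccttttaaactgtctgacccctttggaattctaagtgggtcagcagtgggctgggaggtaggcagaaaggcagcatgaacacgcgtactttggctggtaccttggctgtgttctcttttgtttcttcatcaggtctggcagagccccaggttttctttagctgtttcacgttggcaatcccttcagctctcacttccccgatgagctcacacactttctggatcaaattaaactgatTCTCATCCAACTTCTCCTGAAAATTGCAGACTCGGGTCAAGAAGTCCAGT
Hnf4aos, chr2:163541672-163541971, minus strand: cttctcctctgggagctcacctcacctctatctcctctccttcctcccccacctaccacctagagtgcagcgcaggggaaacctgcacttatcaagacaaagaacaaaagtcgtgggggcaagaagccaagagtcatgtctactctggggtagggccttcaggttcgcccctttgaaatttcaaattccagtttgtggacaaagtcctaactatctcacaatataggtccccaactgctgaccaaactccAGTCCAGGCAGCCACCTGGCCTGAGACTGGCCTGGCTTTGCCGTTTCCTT
RefSeq and GENCODE place the start of Hnf4aos 1 base apart. For Gm11695 the starts lie 260 bases apart and for Gm17196 209 bases apart, and RefSeq lists 4 starts for Gm11695, of which the first is shown. The Gm17196 window crosses a coding exon of Ccdc162, the gene that contains it, and the Gm11695 window crosses exons of noncoding transcripts of Slc16a5.

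The windows were searched on both strands for GGGCGG (the GC box), CCAAT (bound by the factor NF-Y), TATAAA (the core promoter element of that name), CACGTG (an E-box), TTCNNNGAA (a STAT site), TGTTTAC (a forkhead site) and the direct repeat of AGGTCA with 3 bases between that the vitamin D receptor binds, none of which contains another. No match to any of these motifs was present in the 3 windows printed. A promoter was matched for 62 of the 112 members. Of these 62, 30 held CCAAT (48.4%, against 37.4% of all 32851 promoters), 24 held GGGCGG (38.7% against 35.7%), 6 held TATAAA (9.68% against 13.6%) and 6 held CACGTG (9.68% against 7.15%). The letters TTCNNNGAA were present in 5 (8.06% against 8.30%) and TGTTTAC in 4 (6.45% against 3.65%). The vitamin D receptor repeat occurred in 0 of the 62 and in 0.00609% of all promoters. The member promoters had a median of 11.5 CpG dinucleotides and a GC content of 56.3%, where all promoters had medians of 7 and 52.7%.

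The members were unevenly expressed, and a few of them held most of the counts. The most counted member, 0610005C13Rik, had a mean of 1605 counts per library and alone took 19.2% of all counts on the 112 members. The 5 most counted took 44.0% and the 10 most counted 55.9%. At the other end, 78 members had a mean under 50 counts, the median member had 32.0, and only 12 reached 100. Even so, 108 of the 112 had at least 1 count in every library. Together the members held 0.0490% ± 0.00431 (SD, n = 6) of the gene counts in VDD-F1, against 0.0501% ± 0.00387 (SD, n = 6) for the VDS-F1 mice, a difference within the spread between mice (p = 0.602, exact permutation test, two-sided, adjusted p = 0.802 over 4 such tests).

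Levels are compared between genes as normalised counts (CPM, scaled to the library size after TMM) per kilobase of exon, written CPM per kb. The RNA opposite a gene was usually the rarer of the pair, with a median of 1.32 CPM per kb against 3.79 for the sense partners, but in 31 of 110 pairs the antisense RNA had the higher level. Such pairs were 11 of 30 tail-to-tail, 8 of 29 inside, 9 of 43 head-to-head, 3 of 4 around and 0 of 4 divergent pairs. The 4 divergent members faced genes with a median of 94.5 CPM per kb and had a median of 2.53 themselves.

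0610005C13Rik lies head-to-head with Bcat2, the mitochondrial branched-chain amino acid aminotransferase, on chromosome 7. Its level was 26.6 CPM per kb against 2.11 for Bcat2, or 12.6-fold higher. In single mice it ranged from 67.5 to 108 CPM (median 85) in VDD-F1 and from 84.3 to 113 CPM (median 105) in VDS-F1, and the groups overlapped in part, with 3 VDD-F1 mice below every VDS-F1 mouse and 3 VDS-F1 mice above every VDD-F1 mouse. Gm20319, tail-to-tail with the interleukin-1 receptor accessory protein gene Il1rap, had 35.8 CPM per kb against 11.3. Hectd2os, tail-to-tail with the ubiquitin ligase gene Hectd2, had 8.21 CPM per kb against 0.197, or 41.7-fold more than its partner. 0610031O16Rik spans Adh7, an alcohol dehydrogenase gene, and had 7.84 CPM per kb against 0.429, or 18.3-fold more. In these last 2 pairs the sense gene was the rare partner.

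Tug1, a noncoding RNA conserved in mammals, faces Morc2a, a chromatin ATPase gene, and the pair was balanced at 2.64 and 2.68 CPM per kb. Brip1os spans Ints2, which encodes a subunit of the Integrator complex, and had 3.52 CPM per kb against 0.720, while its partner by exon overlap was Med13, a more counted gene. Opposite Gcgr, the glucagon receptor gene, Gm11789 had 8.73 CPM per kb against 42.6. D130020L05Rik, opposite the protein phosphatase 4 regulatory subunit gene Ppp4r3a, had 2.83 against 5.15. Gm19950, inside the medium-chain acyl-CoA synthetase gene Acsm1, had 2.08 against 130. The last of the 10 most abundant members, Gm15564, was opposite Parp9 and matched it on average with 9.37 against 9.38 CPM per kb, but it varied more than any other of these 10, from 0.652 to 25.4 CPM in VDD-F1 and from 0.345 to 31.6 CPM in VDS-F1. Parp9 itself stayed between 37.9 and 60.7 CPM in all 12 mice.

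The 5 pairs ranked highest by the ratio of antisense to sense had a sense gene with almost no counts. Kremen2 and Gm49354 were listed at 0 counts in all libraries while 9530082P21Rik and Etohd2 opposite them had means of 20.3 and 12.1 counts. Panx2, Spatc1l and Efna3 had 2, 3 and 2 counts over all 12 libraries, against means of 29.7, 110 and 41.3 counts per library for 1810021B22Rik, Gm15343 and Gm15998. For 9530082P21Rik, Etohd2 and 1810021B22Rik the silent partner follows from the choice by span, since each also overlapped another gene on the opposite strand that was counted (Flywch1, Tut7 and Trabd, the partners by exon overlap). No ratio is given for these, because 9 of the sense partners had at most 3 counts in all. Among the pairs with more counts, the antisense RNA was more than 10 times above its partner in 5 (1 of them, Gm10734 over Gm49395, by the choice of partner, since its partner by exon overlap was the more counted Pelo) and the sense gene was more than 100 times above the antisense RNA in 12.

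**Figure D1:**
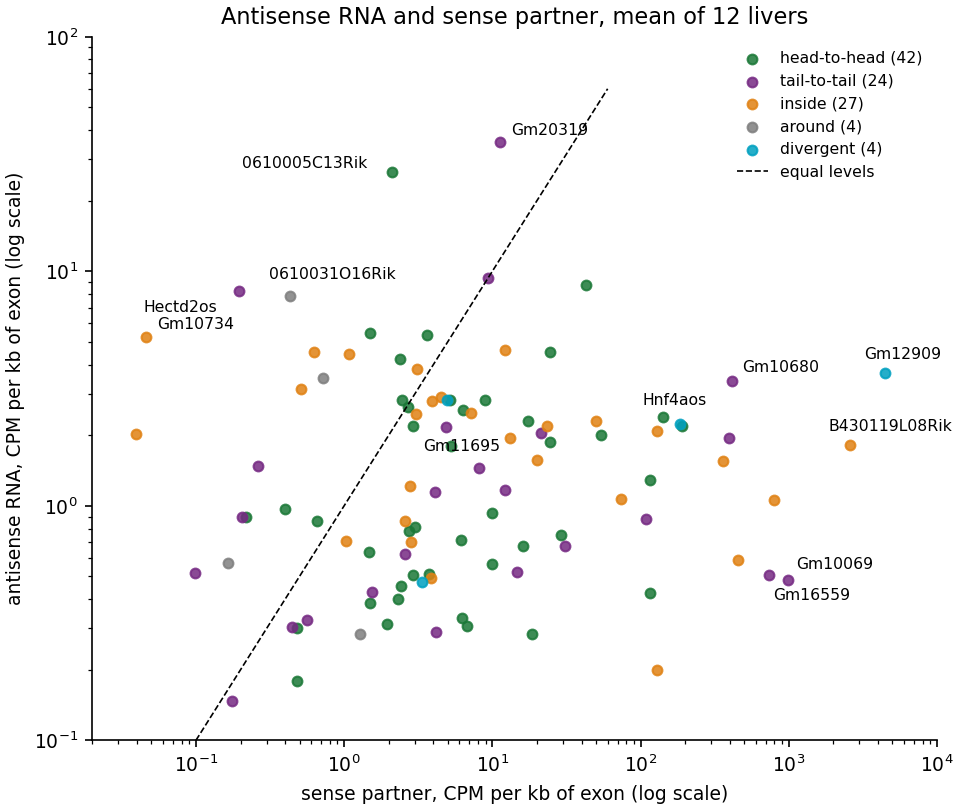
Mean level of each antisense RNA (y axis) against that of its sense partner (x axis), both in CPM per kb of exon on log scales, for the 101 pairs whose sense gene had more than 3 counts, coloured by the position of the antisense gene, with the number of pairs in parentheses and a dashed line at equal levels. Gm20319 and 0610005C13Rik have the highest antisense levels, at 35.8 and 26.6 CPM per kb, while the sense levels extend to 4485 CPM per kb for Mup3, opposite Gm12909.

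At the low end, the sense RNA exceeded the antisense RNA by far. Gm10069 had 0.484 CPM per kb against 984 for Pzp, a plasma protease inhibitor of the alpha-macroglobulin family, or 2034-fold less. Gm16559 had 0.509 against 737 for Adh1, the main liver alcohol dehydrogenase, or 1448-fold less. B430119L08Rik had 1.81 against 2579 for Serpina1c, which encodes an alpha-1-antitrypsin, or 1426-fold less. Because the sense counts of such pairs are so large, the share of fragments assigned to the wrong strand was measured.

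The wrong-strand rate of a library was taken as the share of stranded counts on the forward strand over 6605 protein-coding genes whose span holds no gene on the other strand. In VDD-F1 it lay between 0.218% and 1.31% (mean 0.535% ± 0.415, SD, n = 6). In VDS-F1 it lay between 0.157% and 0.370% (mean 0.236% ± 0.0783, SD, n = 6). The difference did not pass an exact permutation test (p = 0.0801, two-sided, adjusted p = 0.160). VDD5 had the highest rate with 1.31%, followed by VDD1 with 0.616% and VDD4 with 0.551%, and the other 3 VDD-F1 libraries lay within the range of VDS-F1. Over the 12 libraries together, the rate of single genes had a median of 0.354% and a 95th percentile of 2.43%. The rate of a library can thus lie well below or above that of a single gene.

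Multiplied by the counts of the sense partner, the library rates give the count that an antisense gene would show if wrong-strand fragments of the whole sense gene fell on it. The mean count was above this wrong-strand count for 97 of the 106 overlapping members, and at least 10 times above it for 70. It was at or below it for 9 members, of which some were named after their values were seen. They were Gm10069 (opposite Pzp), Gm15622 (Bhmt), Gm16559 (Adh1), Gm47544 (Apoa5), B430119L08Rik (Serpina1c), Gm15883 (Cyp2f2), Gm45091 (Cebpa), Gm45792 (Acsm1) and Hnf4aos (Hnf4a). These sense genes encode plasma proteins, metabolic enzymes and transcription factors of the hepatocyte. When the wrong-strand count was scaled to the exon bases that both genes share, it exceeded the observed count only for B430119L08Rik, with 68.5 against 61.8 counts. This scaling takes the fragments of the sense gene as evenly spread. Forward-strand counts of an antisense gene are fragments from the strand of the sense gene that lie on the antisense exons. They averaged 50645 for B430119L08Rik, 18230 for Gm10069, 14141 for Gm15622, 10129 for Gm15883, 8298 for Gm16559, 7088 for Gm47544 and 1503 for Gm45091. No wrong-strand count was computed from them. Hnf4aos and Gm45792 share no exon bases with their partners, so their scaled value was 0. Their forward-strand counts averaged 0.167 and 10.7.

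The ratio of antisense to sense followed the wrong-strand rate in a small group of pairs. Across the 12 libraries, the log2 ratio correlated with the log2 rate at an adjusted permutation p under 0.05 in 6 of the 90 pairs in which both genes were tested, against 12 of all 1181 opposite-strand pairs. For Gm48702 over Ttc36 Pearson's r was 0.95 (permutation p = 1e-05, the smallest that the resamples can give, adjusted p = 0.00394) and Spearman's rho 0.87 (permutation p = 0.00053, adjusted p = 0.0695). Without the 2 libraries farthest from the median rate r was 0.93, and it was 0.99 within VDD-F1 and 0.98 within VDS-F1. For B430119L08Rik over Serpina1c r was 0.95 (permutation p = 3e-05, adjusted p = 0.0059) and rho 0.87 (permutation p = 0.00061, adjusted p = 0.0720), with r of 0.89 without those 2 libraries, 0.98 within VDD-F1 and 0.84 within VDS-F1.

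The other 4 of these pairs were Gm16559 over Adh1, with r of 0.92 (0.91 without the 2 libraries), Gm10069 over Pzp, with r of 0.91 (0.75), Gm10680 over Apoa4, with r of 0.90 (0.78), and Gm15622 over Bhmt, with r of 0.87 (0.78). Within the diets r lay between 0.92 and 0.98 in VDD-F1, and between 0.61 and 0.81 in VDS-F1. The adjusted permutation p-values of r for these 4 lay between 0.00472 and 0.0106, and rho between 0.80 and 0.90 (permutation p between 0.00026 and 0.00309, adjusted p between 0.0540 and 0.243). All 6 pairs belong to the 12 tested pairs whose mean count was at most 2 times the wrong-strand count, in which the median r was 0.84. In the 54 pairs at 10 times the wrong-strand count or more, 0 passed and the median r was 0.08. The points are the same 12 libraries for every pair, so these values are not independent of each other.

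**Figure D2:**
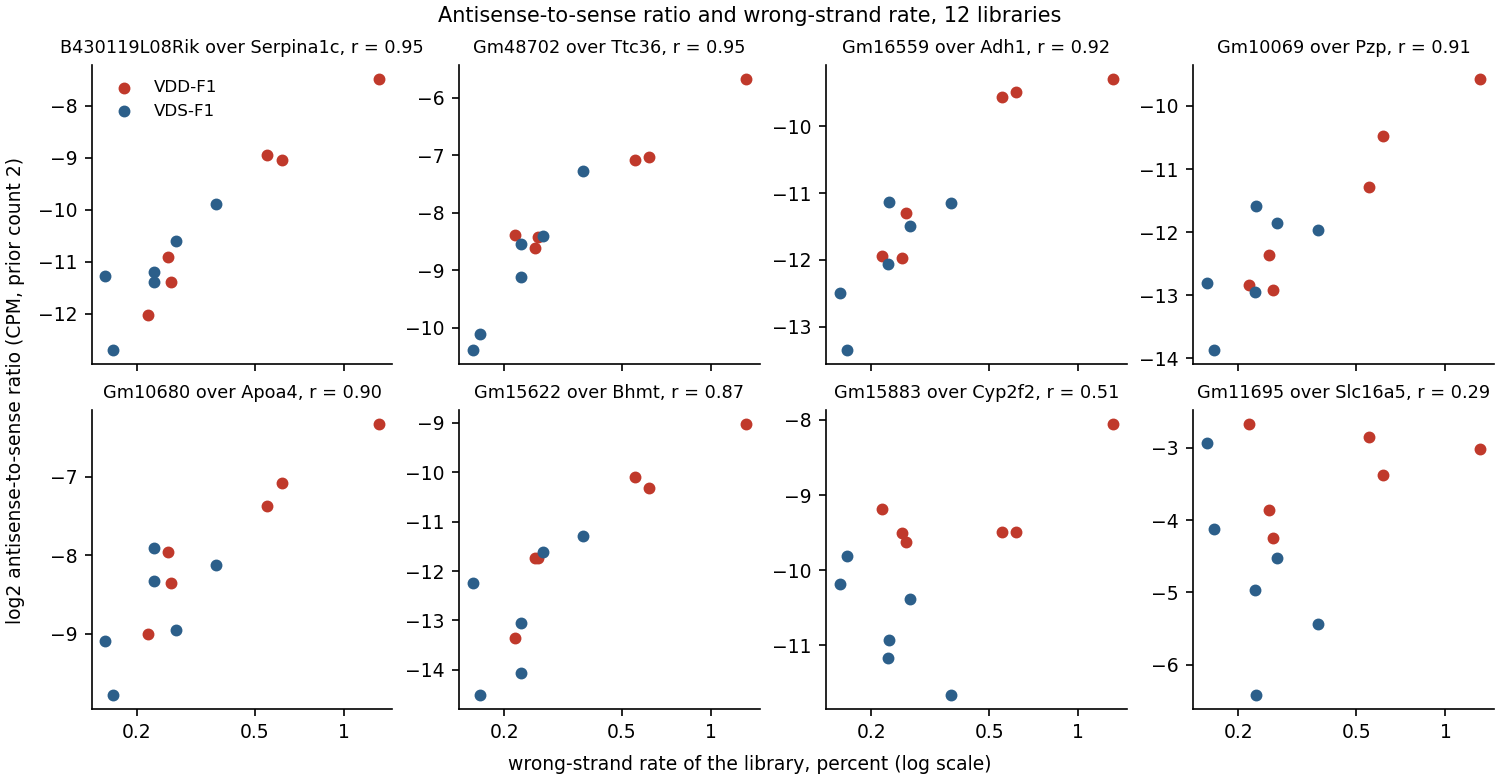
Log2 ratio of antisense to sense CPM (y axes, prior count 2) against the wrong-strand rate of the library in percent (x axes, log scale) for 8 pairs, with 1 point per mouse, VDD-F1 in red and VDS-F1 in blue, and Pearson's r of the 12 points above each panel. The ratio climbs with the rate in the first 6 pairs, with VDD5 at the right end of each, while for Gm15883 over Cyp2f2 and Gm11695 over Slc16a5 r is 0.51 and 0.29.

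The comparison of the diets asked which antisense RNAs in the adult offspring differed with the mother's vitamin D supply. No member passed edgeR's quasi-likelihood test at an adjusted p under 0.05 with a log2-fold change above 1 or below -1, a call that 5 of all 12453 tested genes passed (0.0402%). At an unadjusted p under 0.05, 17 of the 112 members (15.2%) differed, against 15.8% of all genes. The values were higher in VDD-F1 for 10 of the 17 and lower for 7, where 9.55% of all genes were higher and 6.29% lower at this p, so the share was near the background. The median log2-fold change was 0.02 over the members and 0.00 over all genes. DESeq2 called 3 members, Gm11695, Gm15883 and Hnf4aos, and 2.03% of all genes it tested. Among the 129 lincRNAs tested, 18 (14.0%) had an unadjusted p under 0.05 and the median was -0.05. Every VDD-F1 mouse was above every VDS-F1 mouse in 2 members, Gm11695 and Gm15883 (background 0.61% of all genes), and below in 1, Gm17196 (background 0.57%), or without overlap in 3 members against 1.18% of all genes. In bulk liver, fewer cells of a type and less RNA per cell cannot be told apart. Of the members, 9 reached the mean of 12 counts in VDD-F1 only (Gm11695, Gm15622, Gm47544, Gm16559, Gm6277, K230015D01Rik, 2510046G10Rik, Etohd2 and Gm20632) and 1 in VDS-F1 only (0610040B10Rik).

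Gm11695 had the largest difference and the smallest p of all members, but it reached the mean of 12 counts through VDD-F1 only, so its presence among the members was not independent of this difference. It lies head-to-head with Slc16a5, which encodes a transporter of the monocarboxylate family, and its GENCODE span is chr11:115462045-115463454 on the minus strand of GRCm38, where 104 exon bases are shared. Its raw counts were between 8 and 81 in VDD-F1 and between 0 and 3 in VDS-F1. In CPM it ranged from 0.602 to 4.22 (median 1.40) in VDD-F1 and from 0 to 0.177 (median 0.0694) in VDS-F1. All 6 VDD-F1 mice lay above all 6 VDS-F1 mice, and in 3 of the VDS-F1 mice (VDS1, VDS3 and VDS6) the gene had 0 counts. The fitted log2-fold change was 4.31 ± 0.73 (SE), with an unadjusted p of 3.3e-05 and an adjusted p of 0.0592 by edgeR's quasi-likelihood test, which misses the threshold, and an adjusted p of 1.14e-05 by DESeq2. It was called by edgeR when the wrong-strand counts were subtracted (log2-fold change 4.81, adjusted p = 0.0337) or with the set of mice as a covariate (adjusted p = 0.0388), and its count was 19.4 times the wrong-strand count.

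The sense gene Slc16a5 differed in the same direction but less. It ranged from 8.32 to 27.4 CPM (median 14.5) in VDD-F1 and from 0.789 to 10 CPM (median 5.60) in VDS-F1, and the groups overlapped. Its log2-fold change was 1.46 ± 0.40 (SE), with an edgeR adjusted p of 0.112. VDD2 had the highest value of both genes. Across the 12 mice Gm11695 and Slc16a5 had a Pearson's r of 0.76 (permutation p = 0.00137, adjusted p = 0.0919) and a Spearman's rho of 0.82 (permutation p = 0.00162, adjusted p = 0.137). The r was 0.77 without the 2 mice farthest from the median, 0.84 within VDD-F1 and 0.35 within VDS-F1, where 3 mice had no count of Gm11695.

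Hnf4aos runs head-to-head with Hnf4a, the nuclear receptor that drives much of the hepatocyte programme, and starts inside it, with no shared exon bases. It ranged from 0.756 to 2.18 CPM (median 1.60) in VDD-F1 and from 1.94 to 5.08 CPM (median 2.78) in VDS-F1. Only VDD3 and VDD6 reached the range of the VDS-F1 mice. The log2-fold change was -1.04 ± 0.31 (SE), with adjusted p of 0.129 by edgeR and 0.0330 by DESeq2. Hnf4a itself had a log2-fold change of -0.29 ± 0.13 (SE), from a median of 783 CPM in VDS-F1 to 624 CPM in VDD-F1, and an edgeR adjusted p of 0.301. The log2 ratio of Hnf4aos to Hnf4a had a mean of -8.69 ± 0.64 in VDD-F1, against -7.93 ± 0.28 for VDS-F1 (SD, n = 6 each), a difference of -0.76 with a limma adjusted p of 0.254.

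Gm45091, head-to-head with the transcription factor gene Cebpa, had a log2-fold change of 0.53 ± 0.34 (SE), with an edgeR adjusted p of 0.474. Gm45091 was named after its values were seen. Hnf4aos and Gm45091 did not pass the call by edgeR, and the count of Hnf4aos was 0.852 times and that of Gm45091 0.639 times the wrong-strand count. That wrong-strand count takes in the whole sense gene. The forward-strand counts on the antisense exons averaged 0.167 for Hnf4aos, against 11580 counts of Hnf4a. For Gm45091 they averaged 1503, against 8362 counts of Cebpa.

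Gm17196 lies inside Ccdc162, a coiled-coil gene, at chr10:41553762-41556552. It ranged from 0.527 to 0.989 CPM (median 0.703) in VDD-F1 and from 1.0 to 2.06 CPM (median 1.40) in VDS-F1. All VDD-F1 mice lay below all VDS-F1 mice, though the highest VDD-F1 mouse, VDD2, almost met the lowest VDS-F1 mouse, VDS6. The log2-fold change was -0.98 ± 0.27 (SE), with adjusted p of 0.107 by edgeR and 0.0463 by DESeq2, and just short of the fold threshold. Ccdc162 had a log2-fold change of -0.13 ± 0.26 (SE). The level of Gm17196 was 6.10 times that of Ccdc162 per kb of exon.

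Gm15883 lies inside Cyp2f2, a cytochrome P450 gene of periportal hepatocytes. It ranged from 1.32 to 6.51 CPM (median 1.93) in VDD-F1 and from 0.618 to 1.25 CPM (median 0.957) in VDS-F1, without overlap between the diets. The highest value was in VDD5, the library with the highest wrong-strand rate. The log2-fold change was 1.57 ± 0.39 (SE), with adjusted p of 0.0958 by edgeR and 0.00963 by DESeq2. Without VDD5 it was 1.08, with an edgeR adjusted p of 0.167, and with the rate as a covariate 0.89. Cyp2f2 had a log2-fold change of -0.19 ± 0.22 (SE). The mean count of Gm15883 was 31.6, between the wrong-strand count of the whole of Cyp2f2, 110, and that of the shared exon bases, 14.8. The shared bases are 13.5% of the exon bases of Cyp2f2. The forward-strand counts on Gm15883 averaged 10129, against 26768 counts of Cyp2f2, and no wrong-strand count was computed from them. After subtraction of the wrong-strand count of the whole of Cyp2f2, no count was left in any library, so Gm15883 was not fitted.

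**Figure D3:**
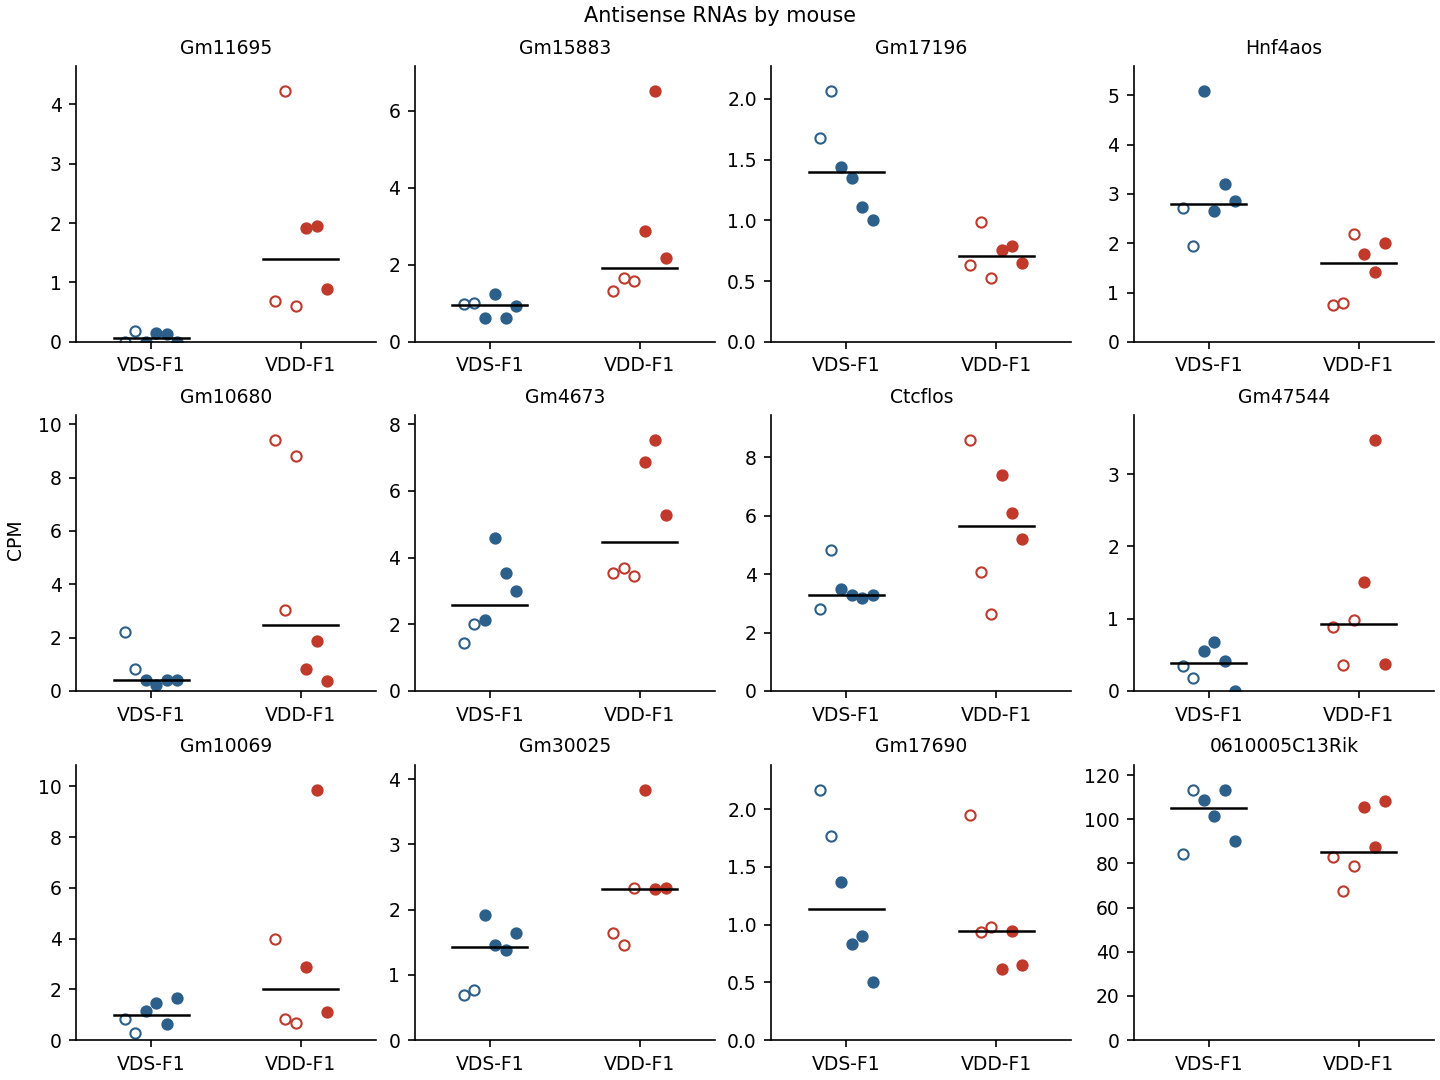
CPM of 12 antisense RNAs in each mouse (y axes start at 0), with VDS-F1 in blue and VDD-F1 in red, filled points for the 7 mice that had a liver weight, open points for the 5 that had none, and a bar at the median of 6 mice. Gm11695 and Gm15883 are higher in every VDD-F1 mouse and Gm17196 is lower in every VDD-F1 mouse, while the other panels overlap.

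Members opposite Apoa4, Apoa5 and Lsr were also among the 10 with the smallest p. Gm10680 lies tail-to-tail with Apoa4, an apolipoprotein gene, and shares 632 exon bases with it. It ranged from 0.372 to 9.39 CPM (median 2.46) in VDD-F1 and from 0.208 to 2.22 CPM (median 0.422) in VDS-F1, with a log2-fold change of 2.36 ± 0.75 (SE) and an edgeR adjusted p of 0.151. The value was 1.5 within the 7 mice that had a liver weight. The mice fell into 2 clusters in Apoa4, which lay between 832 and 2925 CPM in 5 mice for which no liver weight was recorded and between 122 and 177 CPM in the 7 that had one. Gm10680 lay between 0.825 and 9.39 CPM in the former and between 0.208 and 1.89 CPM in the latter. Within the 7 mice, Gm10680 and Apoa4 had a Pearson's r of 0.22 (p = 0.689, exact permutation test, two-sided) and a Spearman's rho of 0.25 (exact p = 0.595).

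Gm47544 lies inside Apoa5, an apolipoprotein gene that controls plasma triglycerides. It ranged from 0.365 to 3.47 CPM (median 0.930) in VDD-F1 and from 0 to 0.675 CPM (median 0.381) in VDS-F1, with a log2-fold change of 1.77 ± 0.65 (SE) and an edgeR adjusted p of 0.209. Like Gm11695, it reached the mean of 12 counts through VDD-F1 only. Without VDD5, its highest library, it was 1.12, with an edgeR adjusted p of 0.418. Apoa5 had a log2-fold change of 0.00 ± 0.13 (SE). Gm4673, tail-to-tail with the lipolysis-stimulated lipoprotein receptor gene Lsr, ranged from 3.46 to 7.51 CPM (median 4.48) in VDD-F1 and from 1.43 to 4.57 CPM (median 2.56) in VDS-F1. Its log2-fold change was 0.86 ± 0.30 (SE), with an edgeR adjusted p of 0.181, and that of Lsr was -0.03 ± 0.13 (SE). The count of Gm4673 was 4.45 times the wrong-strand count, whereas those of Gm47544 and Gm10680 were 0.242 and 1.03 times it.

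The remaining members with a small p had other partners. Gm10069, opposite Pzp, ranged from 0.677 to 9.87 CPM (median 2.0) in VDD-F1 and from 0.295 to 1.64 CPM (median 1.0) in VDS-F1. Its log2-fold change of 1.69 ± 0.63 (SE) had an edgeR adjusted p of 0.217, and the value was 0.91 without VDD5 (adjusted p = 0.453) and -0.16 with the wrong-strand rate as a covariate. Ctcflos, head-to-head with Ctcfl, a germline paralogue of the insulator protein CTCF, ranged from 2.63 to 8.57 CPM (median 5.65) in VDD-F1 and from 2.81 to 4.83 CPM (median 3.28) in VDS-F1, with a log2-fold change of 0.70 ± 0.25 (SE) and an edgeR adjusted p of 0.197. Gm30025, inside the ubiquitin ligase adaptor gene Dcaf5, ranged from 1.46 to 3.84 CPM (median 2.32) in VDD-F1 and from 0.690 to 1.92 CPM (median 1.42) in VDS-F1, with a log2-fold change of 0.83 ± 0.31 (SE) and an edgeR adjusted p of 0.223. The groups overlapped in each of these 3.

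The remaining 7 of the 17 had adjusted p-values further from the threshold, and Gm26588, Gm11131, Gm16536 and Gm48702 were named after their values were seen. Lower in VDD-F1 were Gm26588, opposite the monoacylglycerol lipase gene Mgll, with a log2-fold change of -0.90, Gm11131, opposite the MHC class I gene H2-Q4, with -0.47, Gm16536, opposite the beta-secretase gene Bace1, with -0.41, and 0610031O16Rik and D130020L05Rik, with -0.41 each. Higher were Gm16559, opposite Adh1, with 1.52, and Gm48702, opposite Ttc36, with 1.38. Their edgeR adjusted p-values lay between 0.276 and 0.308.

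The 17 members were examined again with the wrong-strand counts taken into account. After each library's rate times the sense count was subtracted, 5 of the 10 members that had been higher in VDD-F1 at an unadjusted p under 0.05 were still so. Of the other 5, 4 (Gm15883, Gm47544, Gm10069 and Gm16559) had no count left in any library and were not fitted. All 7 that had been lower were still so, but the subtraction takes more from VDD-F1, where the mean rate was higher, and therefore bears little on a lower value. Hnf4aos went from -1.04 to -3.34, although it shares no exon bases with Hnf4a. With the rate as a covariate, 3 of the 10 (Gm11695, Gm10680 and Gm15883) and 3 of the 7 (Gm17196, Hnf4aos and 0610031O16Rik) were still so.

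Among the sense partners, more had lower than higher values in VDD-F1. Of the 92 tested, 65 had a log2-fold change below 0 against 6124 of 12453 among all genes, and the median was -0.11, where that of all genes was 0.00. At an unadjusted p under 0.05, 17 were lower (6.29% of all genes were) and 2 were higher (9.55% of all genes were), and 0 passed the call by edgeR. The largest decrease in value was that of Mup3, named after its value was seen, a major urinary protein gene, with a log2-fold change of -0.95 ± 0.30 (SE) and an edgeR adjusted p of 0.151, while Gm12909, transcribed away from it, had 0.22 ± 0.28 (SE). Reads of near-identical Mup genes can be dropped or assigned to the wrong copy.

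**Figure D4:**
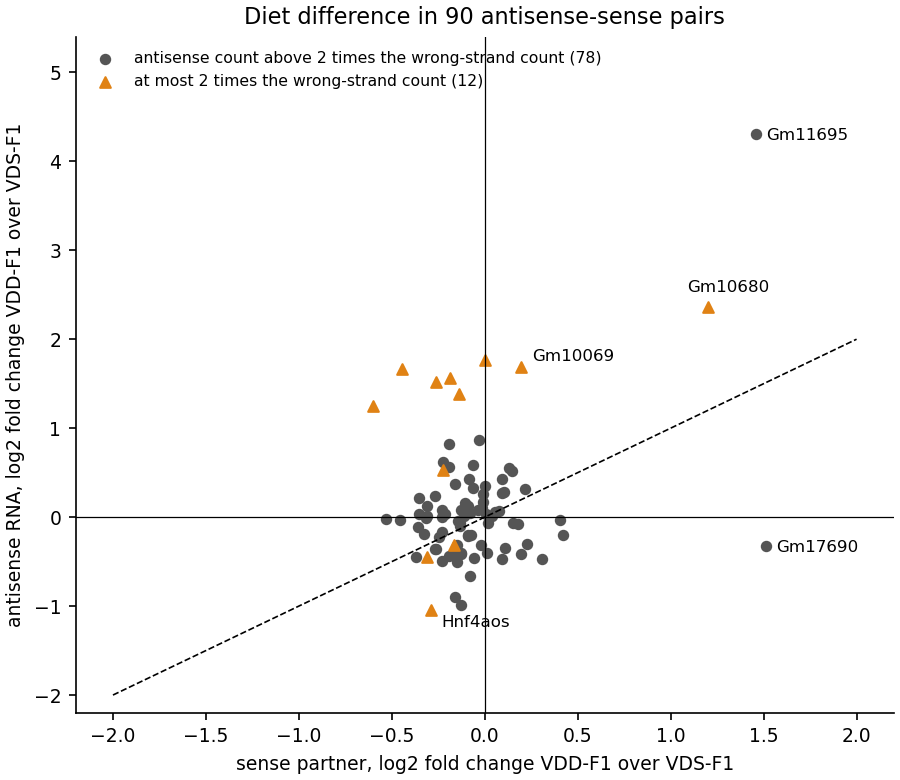
Log2-fold change between VDD-F1 and VDS-F1 of the antisense RNA (y axis) against that of its sense partner (x axis) in the 90 pairs in which both were tested, with orange triangles for the 12 pairs whose antisense count was at most 2 times the wrong-strand count, grey points for the other 78, and a dashed line at equal differences. Most pairs lie near the origin, Gm11695 stands at 4.31 and 1.46, and 9 of the 12 triangles lie above the line.

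The ratio of antisense to sense within each mouse was compared between diets to find pairs in which the 2 RNAs differed unequally. By limma, 0 of the 90 member pairs and 0 of all 1181 opposite-strand pairs had an adjusted p under 0.05 (background 0%). At an unadjusted p under 0.05 there were 18 member pairs, 14 with a higher and 4 with a lower ratio in VDD-F1, and 178 of the 1181 pairs (15.1%). No background is given by direction, since most of the 1181 pairs have no antisense member to set the sign of the ratio. Of the 14, Gm11695, Gm47544, Gm15622 and Gm16559 reached the mean of 12 counts through VDD-F1 only. The smallest p belonged to Gm17690 over Mtmr11, a myotubularin-related gene, with a mean log2 ratio of -1.52 ± 0.77 in VDD-F1, against 0.32 ± 0.60 for VDS-F1 (SD, n = 6 each), a difference of -1.84 ± 0.39 (SE) and a limma adjusted p of 0.0741. In this pair the larger difference was on the sense side, where the log2-fold change was 1.51 ± 0.46 (SE) for Mtmr11 and -0.32 ± 0.39 (SE) for Gm17690.

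In the pairs that followed, the antisense RNA had the larger fold change. The ratio of Gm15883 to Cyp2f2 was higher by 1.46 ± 0.36 (SE) on the log2 scale in VDD-F1 (limma adjusted p = 0.104), that of Gm30025 to Dcaf5 by 0.97 ± 0.28 (adjusted p = 0.159), that of Gm37305 to the cyclin gene Ccnl1 by 1.07 ± 0.37 (adjusted p = 0.220) and that of Gm11695 to Slc16a5 by 1.40 ± 0.52 (adjusted p = 0.235). Of the 14 pairs with a higher ratio, Gm48702 over Ttc36, Gm47544 over Apoa5, Gm15622 over Bhmt, Gm16559 over Adh1, Gm10680 over Apoa4 and Gm45091 over Cebpa were among the 12 pairs near the wrong-strand count, together with Gm15883 over Cyp2f2.

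Antisense RNA and sense partner did not vary together as a rule. The median Pearson's r of log2 CPM across the 12 mice was 0.06 in the 90 member pairs, of which 53 were positive, and 0.07 in all 1181 opposite-strand pairs. Pairs that met head-to-head had a median r of 0.20 (41 pairs), those inside 0.04 (25 pairs), those tail-to-tail -0.03 (22 pairs) and those around 0.04 (2 pairs). No member pair passed at an adjusted permutation p under 0.05, against 8 of the 1181.

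Gm11695 with Slc16a5, given above, was among the highest values. For Gm10680 with Apoa4 no r over all mice is given, because the mice fell into clusters. The lowest values were those of Gm4673 with Lsr, with r of -0.63 (permutation p = 0.0287, adjusted p = 0.375) and rho of -0.71 (permutation p = 0.0131, adjusted p = 0.354), of C130013H08Rik with the arginine methyltransferase gene Prmt6, with r of -0.58 (permutation p = 0.0450, adjusted p = 0.416) and rho of -0.42 (permutation p = 0.180, adjusted p = 0.663), and of Gm16573 with Parp4, with r of -0.58 (permutation p = 0.0590, adjusted p = 0.458) and rho of -0.29 (permutation p = 0.363, adjusted p = 0.800). For Gm4673 the sign was kept within VDD-F1 (-0.80) and within VDS-F1 (-0.78) and without the 2 mice (-0.53). For C130013H08Rik and Gm16573 r without the 2 mice was 0.02 and -0.10, so their relations rested on those mice.

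**Figure D5:**
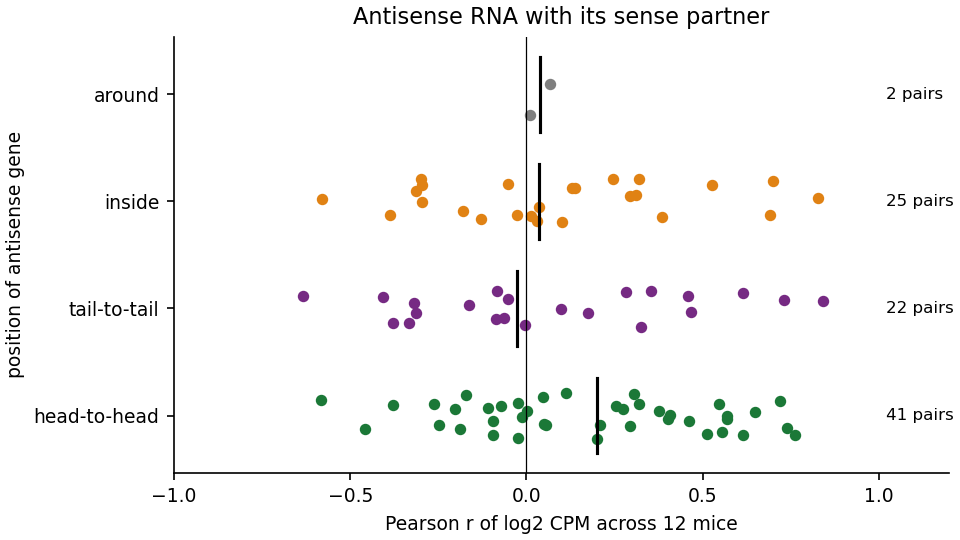
Pearson's r of log2 CPM between each antisense RNA and its sense partner across 12 mice (x axis), with 1 point per pair grouped by position (y axis, points spread vertically for visibility) and a bar at the median of each group. The points extend to both sides of 0 in the 3 larger groups, and the median of the head-to-head pairs is 0.20.

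The mice differed in ways that the diet does not define. A liver weight was recorded for VDD4, VDD5, VDD6 and the VDS-F1 mice 3 to 6, and these 7 mice were analysed apart from the 5 others. Within the 7, edgeR called 4 members, Gm11695 (log2-fold change 4.18, adjusted p = 0.00260), Gm15883 (2.14, adjusted p = 0.00754), 1810064F22Rik opposite Zfp872 (1.83, adjusted p = 0.0143) and Gm26588 opposite Mgll (-1.49, adjusted p = 0.0418), among 536 of all genes, and 1810064F22Rik was named after its value was seen. Within the 5 mice it called 0 members and 0 of all genes. The log2-fold change in these 5 mice was 4.38 for Gm11695, 0.62 for Gm15883, 0.01 for 1810064F22Rik and -0.60 for Gm26588. The difference between the sets was tested as an interaction, and 0 members and 11 of all 12453 genes had an adjusted p under 0.05 by edgeR, with 3 members and 9.01% of all genes at an unadjusted p under 0.05.

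The liver identity and other cells were checked with 11 lists of marker genes, none of whose genes was at 0 in all libraries. The hepatocyte list summed to between 86418 and 102879 CPM in VDD-F1, with 4 of 6 genes higher there, and to between 75114 and 91945 CPM in VDS-F1 (p = 0.0260, exact permutation test, two-sided, adjusted p = 0.143 over the lists). The cycling list lay between 6.77 and 66.0 CPM in VDD-F1, with 4 of 4 genes higher, against 4.72 to 7.69 CPM (exact p = 0.00866, adjusted p = 0.0952). The dendritic cell list lay between 6.62 and 22.5 CPM, with 4 of 5 genes higher, against 6.93 to 8.49 CPM (exact p = 0.0476, adjusted p = 0.175). The cholangiocyte list lay between 23.8 and 115 CPM, with 6 of 6 genes higher, against 27.7 to 51.5 CPM (exact p = 0.0844, adjusted p = 0.232). The other 7 lists overlapped between the diets with exact p between 0.156 and 0.667. Of these, the means of the stellate, B cell, T and NK cell and neutrophil lists were higher in VDD-F1 and those of the endothelial, Kupffer and erythroid lists were lower. Antisense genes with at least 1 count numbered 601 ± 72.3 in VDD-F1, against 503 ± 71.5 for VDS-F1 (SD, n = 6 each, exact p = 0.0498, adjusted p = 0.160), beside the higher mean wrong-strand rate of VDD-F1. The part of these values in the results above was not tested.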

How the data were processed

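RNA was sequenced from liver tissue of 6 VDD-F1 and 6 VDS-F1 males with a stranded kit that removes ribosomal RNA. The authors aligned trimmed reads with STAR to the mouse genome (mm10, GRCm38; GENCODE M15 in the paper's methods) and deposited, for every gene, raw counts that were not normalized: an unstranded count and the counts of either strand. The version of STAR was not given in the sources used here. Only fragments that map to 1 place are counted, so that near-identical copies lose reads. STAR counts by strand, so that overlapping genes on opposite strands are separated up to the wrong-strand rate.

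The reverse-strand counts were used. The 4 rows that name no gene were left out of the library totals. They held unmapped (23.5% to 37.9% of fragments), multimapping (6.69% to 8.92%), unassigned (2.52% to 11.1%, the highest in VDS6) and ambiguous fragments (1.33% to 2.13%). Gene types and positions came from GENCODE M21, in which 52403 of 52636 genes were matched, and promoters from RefSeq on GRCm38.p6. Gene boundaries may differ between M15 and M21. A gene with few counts has an imprecise fold change, and library totals limit the precision of rare antisense RNAs.

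Diets were compared with edgeR 4.0.16 in R 4.3.3 (TMM, quasi-likelihood test, legacy form, Benjamini-Hochberg adjustment over 12453 genes with a mean of at least 12 counts). A call needed an adjusted p under 0.05 together with an absolute log2-fold change above 1, as in the paper's methods, which name DESeq2 in place of edgeR. Log2 ratios of antisense to sense CPM (prior count 2) were compared with limma 3.58.1 over 1181 opposite-strand pairs. Correlations used 100000 permutations, adjusted over the 1181 pairs, and single values an exact permutation test over 924 splits (smallest p 0.00216). Python 3.11.15, SciPy 1.17.1, NumPy 2.4.6, pandas 2.3.3 and matplotlib 3.10.9 were used. The tests were tested on simulated data.

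The members and lists were chosen with earlier results of these data known. Named are the 10 members with the highest mean CPM, the 10 with the smallest p, the 5 highest and 3 lowest ratios to the sense gene, the 5 pairs with the smallest p of the ratio, the 3 highest and 3 lowest r, the 3 members on each side of the count threshold, antisense genes of liver transcription factors, and the sense partners. Some results of this rule are not reported here. Features outside this rule were named after their values were seen. Which mice had a liver weight was taken from the paper's supplement. The alternatives were DESeq2 1.42.0, voom with quality weights, DESeq2's size factors, other filters and prior counts, the count without strand, subtraction of wrong-strand counts, another choice of partner, a replicate block, the set of mice, each set alone and each mouse left out. The newer form of edgeR and the wrong-strand rate as a covariate were added later, with the data known.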

Additional observations from a re-analysis of the deposited data

Results flagged for a closer look

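In 72 groups of 6 values (35 named antisense RNAs and the wrong-strand rate, in each diet), the lowest and the highest value were examined. A value stood apart from the other 5 by more than Dixon's 95% limit in 11 groups, each time the highest. For normally distributed values, chance alone gives such a value at either end in about 1 in 20 groups. Many named members were chosen by a small p, an extreme r or an extreme ratio, so this rate need not hold here. In VDD5 these were the wrong-strand rate of 1.31% (the next VDD-F1 library had 0.616%), Gm10069 with 9.87 CPM (next 3.97), Gm15883 with 6.51 CPM (next 2.88) and Gm47544 with 3.47 CPM (next 1.51). The part of the rate in these values of VDD5 was not tested beyond the subtraction and the covariate.

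In the other VDD-F1 mice, Gm11695 stood apart in VDD2 with 4.22 CPM (next 1.94), Gm15564 in VDD3 with 25.4 CPM (next 7.56), Hectd2os in VDD6 with 49.2 CPM (next 28.5), Gm30025 in VDD4 with 3.84 CPM (next 2.33) and Gm17690 in VDD1 with 1.95 CPM (next 0.978). In VDS-F1, Gm10680 stood apart in VDS1 with 2.22 CPM (next 0.825) and Ctcflos in VDS2 with 4.83 CPM (next 3.50).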

How the results depend on the processing

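Members called by edgeR numbered 0 with all 12 mice, where 5 of all 12453 genes were called. The count was 1 (Gm11695 each time) with no filter (70 of 24759 genes) and with the set of mice as a covariate (21 of 12453 genes). It was also 1 (Gm11695) after subtraction of wrong-strand counts (6 of 12447 genes) and in the newer form of edgeR (17 of 12453 genes). It was 2 by voom (252 of 12453 genes), 3 by DESeq2 (253 of 12447 genes) and 4 in the mice with a recorded liver weight (536 of 12453 genes). When each mouse was left out it was 0 to 2, where 0 to 260 of all genes were called. Without VDD1 the members called were Gm11695 and Gm15883, among 260 of all genes, and without VDD3 Gm11695, among 93. With the replicate number as a block the count was 1 (Gm11695, log2-fold change 4.38, adjusted p = 0.0146), among 17 of all genes. The block changed no other call among the members. Mice with the same number had deviations from the group means that correlated between -0.0762 and 0.103, so the numbers do not pair them.

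Members higher in VDD-F1 at an unadjusted p under 0.05 numbered 10, and 2 at a mean count of at least 50, 16 in the mice with a liver weight, 5 after subtraction, 4 for the count without strand, 4 with the wrong-strand rate as a covariate, and 7 to 13 when each mouse was left out. Of the 10, Gm10680 and Gm47544 had no count without strand and were not fitted in that setting. Those lower numbered 7, and 4 at a mean count of at least 50, 2 in the mice without a liver weight, 12 after subtraction, and 3 to 10 when each mouse was left out (3 without VDD5 or VDS5, 4 without VDD2, VDD4, VDS2 or VDS3). In either direction, 1972 of all 12453 genes had such a p. The background was 1544 of 10115 genes at a mean count of at least 50 and 1974 of 12447 after subtraction. It was 3170 of 12453 in the mice with a liver weight and 472 in those without. It was 1943 of 12435 for the count without strand, 2176 of 12453 with the rate as a covariate, and 1545 to 2346 when each mouse was left out.

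Pairs called by their ratio numbered 0, and 5 in the mice with a liver weight (Gm17690 over Mtmr11, Gm15883 over Cyp2f2, Gm42604 over Fras1, 1110002L01Rik over Kif3c and Gm4673 over Lsr), and 0 to 1 when each mouse was left out (Gm17690 over Mtmr11 without VDD1). With the partner chosen by exon overlap it was 0, with 13 ratios higher and 4 lower. Ratios higher at an unadjusted p under 0.05 numbered 14, and 3 at a mean count of at least 50, 4 in the mice without a liver weight, 6 after subtraction, and 6 to 16 when each mouse was left out (6 without VDD5, 7 without VDD4). Ratios lower numbered 4, and 7 with no filter, 1 at a mean count of at least 50, 2 in the mice without a liver weight, 8 after subtraction, 7 by limma without a trend, and 2 to 6 when each mouse was left out (2 without VDS5). The median r of antisense with sense was 0.06 over all mice, 0.16 for deviations from the diet mean, and 0.03 to 0.12 when each mouse was left out. The log2-fold change of Gm10069 was reversed to -0.27 in the count without strand and to -0.16 with the rate as a covariate. The count without strand held fewer fragments of this gene, with a mean of 9.83 against 36.8 on the reverse strand. The causes were not tested. A member near 12 counts per library could show only large differences at this depth.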
